A study of Mus musculus with 15 samples.

Results

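The Hox genes are homeobox genes that lie in 4 clusters in the mouse, Hoxa to Hoxd. Here they are all genes of the deposited count tables whose symbol is Hox, a cluster letter and a position number from 1 to 13. That rule found 39 genes of 31017: 11 in Hoxa, 10 in Hoxb, 9 in Hoxc and 9 in Hoxd. It uses symbols alone and no measured value. Hox proteins are transcription factors that bind DNA through the homeodomain, which the homeobox encodes. Genes with low numbers lie at one end of a cluster and act towards the head, and genes with high numbers lie at the other end and act towards the tail, so that the set of Hox genes a cell transcribes records where along the body it came from. Fibroblasts keep such a set in culture, and the cortex, which derives from the forebrain, forms ahead of the part of the body axis that Hox genes pattern. Genes of the same number in different clusters (paralogs) arose by duplication.

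The series measured RNA precipitated with antibodies from mice with a dominant mutation in Dnmt1, the enzyme that copies DNA methylation at replication. Tail fibroblast lines were derived from littermates matched for sex, either heterozygous (Het), homozygous (Hom) or wild type (WT). Dnmt1 RIP used a rabbit antibody to Dnmt1 on formaldehyde-fixed fibroblasts, with 2 libraries for each of Het, Hom and WT. m5C RIP used an antibody against 5-methylcytosine, a modified RNA base, on messenger RNA: fibroblasts gave 1 Het, 1 Hom and 2 WT libraries, and cortex gave 1 Het, 1 Hom and 1 WT library. A library titled input exists for each tissue, with no genotype given and an antibody field that names IgG. The labels give neither the base change nor an age, nor whether a line is a clone or pools animals. Nothing in them ties replicate libraries to separate cultures or animals, so the spread behind each p-value may be technical.

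The 39 genes lie on 4 chromosomes of mm10 (GENCODE M21): Hoxa on chromosome 6 on the minus strand, and Hoxb at chr11:96194316-96368256, Hoxc at chr15:102921103-103036852 and Hoxd at chr2:74668310-74765142 on the plus strand. A homeobox of 180 bases was found in the coding sequence of all 39. The sequences below are those of 7 of the 8 genes with the highest level per kb in fibroblast m5C RIP, because the tissue comparison turns on them. Capitals mark codons 48 to 53, the core of the recognition helix that reads the bases of DNA. In mm10 the homeobox lies as follows: that of Hoxb8 at chr11:96284174-96284353 (plus strand), that of Hoxb9 at chr11:96274659-96274838 (plus strand), that of Hoxc10 at chr15:102970848-102971027 (plus strand), that of Hoxc11 at chr15:102956480-102956659 (plus strand), that of Hoxc12 at chr15:102938308-102938487 (plus strand), that of Hoxb13 at chr11:96196020-96196199 (plus strand) and that of Hoxc13 at chr15:102927210-102927389 (plus strand).
Hoxb8: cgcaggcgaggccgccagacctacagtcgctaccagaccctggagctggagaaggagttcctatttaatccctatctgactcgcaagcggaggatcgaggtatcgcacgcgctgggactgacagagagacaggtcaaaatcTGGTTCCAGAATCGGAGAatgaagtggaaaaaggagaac
Hoxb9: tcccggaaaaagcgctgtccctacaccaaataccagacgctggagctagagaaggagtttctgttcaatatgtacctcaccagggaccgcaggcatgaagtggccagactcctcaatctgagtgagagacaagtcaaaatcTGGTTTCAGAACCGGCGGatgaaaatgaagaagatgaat
Hoxc10: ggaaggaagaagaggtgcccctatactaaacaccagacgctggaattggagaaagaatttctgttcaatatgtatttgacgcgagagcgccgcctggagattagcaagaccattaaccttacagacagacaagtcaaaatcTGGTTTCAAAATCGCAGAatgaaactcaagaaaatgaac
Hoxc11: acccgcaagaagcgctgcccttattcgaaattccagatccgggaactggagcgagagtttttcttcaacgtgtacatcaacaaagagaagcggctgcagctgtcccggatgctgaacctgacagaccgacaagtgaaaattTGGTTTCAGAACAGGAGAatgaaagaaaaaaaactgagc
Hoxc12: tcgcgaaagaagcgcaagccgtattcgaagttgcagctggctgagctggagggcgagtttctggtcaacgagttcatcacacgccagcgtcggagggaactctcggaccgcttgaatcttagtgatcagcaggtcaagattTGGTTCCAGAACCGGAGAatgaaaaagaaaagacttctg
Hoxb13: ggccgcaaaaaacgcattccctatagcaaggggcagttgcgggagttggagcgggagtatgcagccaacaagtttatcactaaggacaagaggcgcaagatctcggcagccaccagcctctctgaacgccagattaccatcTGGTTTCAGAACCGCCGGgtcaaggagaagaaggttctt
Hoxc13: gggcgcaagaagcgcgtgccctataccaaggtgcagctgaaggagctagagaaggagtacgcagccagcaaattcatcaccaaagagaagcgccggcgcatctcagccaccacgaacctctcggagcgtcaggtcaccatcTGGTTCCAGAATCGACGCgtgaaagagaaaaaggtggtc
The homeoboxes of the 8 genes share a median of 58.1% of their bases over 28 pairs (51.1 to 73.9%). Paralogs of the same number share a median of 80.6% over 42 pairs, against 60.6% over 699 pairs of different number. The longest run of identical bases between 2 members is 52, and its median over the members is 28. The capitals are spelled in 30 ways over the 39 genes.

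The next 3 sequences belong to genes that stood higher in Dnmt1 RIP than in m5C RIP of fibroblasts, in the same notation, with that of Hoxa5 at chr6:52202632-52202811 (minus strand), that of Hoxc6 at chr15:103010754-103010933 (plus strand) and that of Hoxd11 at chr2:74683917-74684096 (plus strand).
Hoxa5: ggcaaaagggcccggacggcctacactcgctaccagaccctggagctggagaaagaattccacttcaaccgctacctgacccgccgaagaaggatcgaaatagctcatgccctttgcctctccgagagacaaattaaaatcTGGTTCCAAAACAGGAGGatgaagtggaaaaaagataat
Hoxc6: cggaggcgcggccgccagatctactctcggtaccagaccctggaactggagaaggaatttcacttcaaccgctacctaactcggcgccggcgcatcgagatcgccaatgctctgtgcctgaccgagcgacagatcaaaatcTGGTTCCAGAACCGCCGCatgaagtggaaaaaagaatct
Hoxd11: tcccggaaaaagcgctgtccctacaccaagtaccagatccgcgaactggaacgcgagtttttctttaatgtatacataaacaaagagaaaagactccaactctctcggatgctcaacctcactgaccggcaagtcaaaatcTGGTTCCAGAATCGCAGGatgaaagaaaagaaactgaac
Of the 39 genes, 16 share exon bases with another annotated gene, 9 of them on the same strand and 10 on the opposite strand. The shared part is above 50% only for Hoxb3 (52.9%, opposite strand), Hoxd3 (62.3%, same strand) and Hoxd4 (52.3%, same strand). The strand setting of the counting was not stated, so reads of these genes and their overlapping partners may not be told apart. Among the genes shown, Hoxd11 shares 10.8% and Hoxc10 shares 8.7% of exon bases with another gene.

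Some libraries depart from what their labels lead one to look for, and this bears on the values that follow. Total gene counts ran from 217173 to 4913482, so that a count of 0 allows up to 13.8 CPM (a gene's counts scaled to a common total of gene counts per library) in the shallowest Dnmt1 RIP library (WT library 1) and up to 0.611 CPM in cortex input. These limits, taken as 3 counts, cover counting error only. Lars2, Gm42418, Gm26917 and Gm10800 took 4.01 to 63.5% of a library. The 9 fibroblast markers summed to 435 to 16189 CPM in Dnmt1 RIP, 20625 to 29630 CPM in fibroblast m5C RIP and 495 to 582 CPM in cortex m5C RIP. The 9 neuron markers summed to 1841 to 4959 CPM in Dnmt1 RIP, 523 to 944 CPM in fibroblast m5C RIP and 8754 to 9157 CPM in cortex m5C RIP, so every Dnmt1 RIP library of the fibroblast lines carried neuron transcripts above the level of any fibroblast m5C library. The 8 macrophage markers summed to 36.9 to 2026 CPM in Dnmt1 RIP, 2996 to 5109 CPM in fibroblast m5C RIP and 138 to 160 CPM in cortex m5C RIP. No marker of these 3 lists was at 0 in every library of a kind, inputs apart. A further point concerns 1 pair of files: the Hom library of fibroblast m5C RIP held no more counts than WT library 1 in any of the 31017 genes, the Hox genes included, and exactly as many in 7163 of the 19511 genes detected in Hom. For that reason the comparisons that use it are also given without WT library 1.

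Hox transcripts were read in every kind of library, and among the precipitated libraries more in fibroblasts than in cortex; the inputs did not follow this order. Dnmt1 RIP held 510 and 347 Hox counts in Het, 190 and 964 in Hom, and 97 and 346 in WT. Fibroblast m5C RIP held 757 in Het, 220 in Hom, and 462 and 430 in WT. Cortex m5C RIP held 32 in Het, 47 in Hom and 64 in WT, and the inputs held 7 (fibroblast) and 367 (cortex). As a share of gene counts this was 185 to 747 CPM in Dnmt1 RIP, 303 to 474 CPM in fibroblast m5C RIP, 19.5 to 48.8 CPM in cortex m5C RIP, 30.6 CPM in fibroblast input and 74.7 CPM in cortex input. Every fibroblast m5C library stood above every cortex library, and the lowest Dnmt1 RIP library did so too. The lowest Dnmt1 RIP value, 185 CPM in Hom library 1, was 505 CPM once the 4 dominant genes were left out of the total, and the 6 libraries then ran from 457 to 1001 CPM. All 39 genes were read in at least 1 Dnmt1 RIP library and in at least 1 fibroblast m5C library, against 30 in cortex m5C RIP. Hoxa2, Hoxa4, Hoxb9, Hoxb13, Hoxc12, Hoxd3, Hoxd4, Hoxd12 and Hoxd13 had no count in any of the 3 cortex m5C libraries.

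In the Dnmt1 RIP of fibroblasts, the highest levels per kb of exon came from low, middle and high numbers. Hoxc6 led with a mean of 13.1 CPM per kb (3.23 to 29.6 over 6 libraries), followed by Hoxa5, which acts in the neck, upper thorax and lung, at 12.7, Hoxc9 at 10.6 and Hoxb4 at 9.42 CPM per kb. The lowest was Hoxd4 at a mean of 1.05 CPM per kb. Cluster medians were 5.35 CPM per kb in Hoxa, 5.46 in Hoxb, 6.55 in Hoxc and 2.02 in Hoxd, and the medians of positions 9 to 13, 5 to 8 and 1 to 4 were 5.86, 6.23 and 2.56 CPM per kb.

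Fibroblast m5C RIP had other genes in front, and its highest levels per kb were among high-numbered genes of Hoxc and Hoxb. Hoxc12 led with a mean of 19.6 CPM per kb (range 13.9 to 26.4 over 4 libraries). Hoxb9, which with its paralogs patterns the ribs, followed at a mean of 13.4, Hoxc11 at 13.2, Hoxb13, active at the tail end of the embryo, at 12.5, Hoxc13, which drives hair keratin genes, at 12.2 and Hoxc10, which with its paralogs patterns the lumbar region, at 11.4 CPM per kb. The ranges of these genes overlapped with each other and with that of Hoxc12. The lowest member was Hoxd13, a digit gene, at a mean of 0.0465 CPM per kb. By cluster, the median level was 6.35 CPM per kb in Hoxb and 4.37 in Hoxc, against 1.66 in Hoxa and 0.349 in Hoxd. By position, the 16 genes numbered 9 to 13 had a median of 4.91 CPM per kb, the 11 numbered 5 to 8 had 3.57 and the 12 numbered 1 to 4 had 0.657. Levels in cortex were low throughout: the highest mean was 1.16 CPM per kb, for Hoxc6, in m5C RIP and 3.03 CPM per kb, for Hoxa6, in input.

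**Figure D1:**
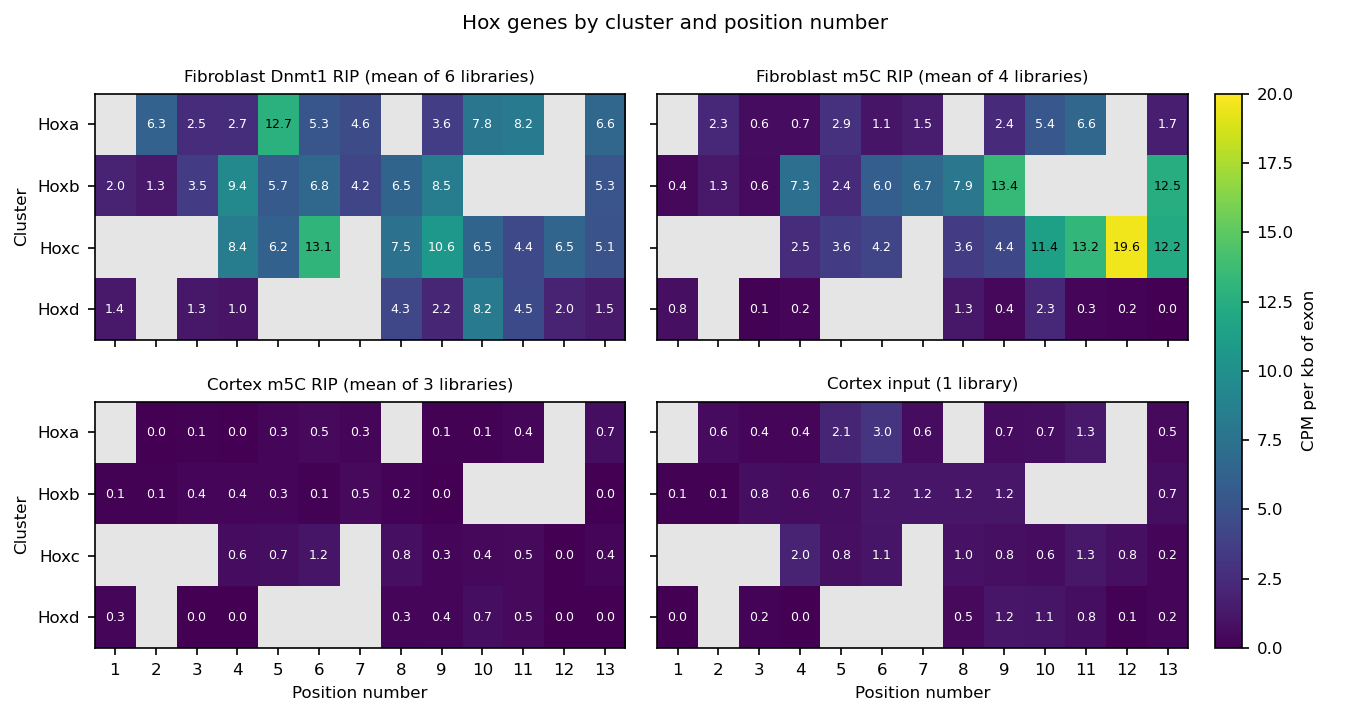
Mean level (CPM per kb of exon) of 38 Hox genes, with clusters Hoxa to Hoxd as rows and position numbers 1 to 13 as columns, in Dnmt1 RIP (6 libraries), fibroblast m5C RIP (4), cortex m5C RIP (3) and cortex input (1). The highest Dnmt1 RIP values spread over low, middle and high numbers with Hoxc6 at 13.1 CPM per kb. The highest fibroblast m5C values lie in Hoxb and Hoxc at high numbers with Hoxc12 at 19.6. Both cortex panels stay at or below 3.03 CPM per kb.

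The 2 precipitations also differed in the share of Hox counts at high numbers. The mean summed level of numbers 9 to 13 was alike, 228.8 CPM in fibroblast m5C RIP and 228.3 in Dnmt1 RIP. Numbers 5 to 8 gave 94.9 against 178 CPM, and numbers 1 to 4 gave 45.5 against 117 CPM. Within numbers 9 to 13, m5C RIP was higher in Hoxb (62.0 against 33.5 CPM) and Hoxc (109 against 66.5). It was lower in Hoxa (50.4 against 81.0 CPM) and Hoxd (7.19 against 47.3). Genes numbered 9 to 13 held 44.1 and 45.2% of Hox counts in Dnmt1 RIP of Het, 40.5 and 42.6% in Hom and 52.6 and 38.4% in WT. In fibroblast m5C RIP they held 68.8% in Het, 66.4% in Hom and 50.2 and 67.2% in WT. The Dnmt1 RIP shares lay below the m5C shares except for WT library 1 (52.6%, 95% exact binomial interval 42.2 to 62.8%, from 97 counts), which lay above WT library 1 of m5C RIP (50.2%, 45.6 to 54.9%). In cortex m5C RIP the share was 31.3% in Het, 44.7% in Hom and 35.9% in WT (interval 24.3 to 48.9%), and it was 41.7% in cortex input. In fibroblast m5C RIP, WT library 1 exceeded the Hom library by 242 Hox counts. Of these, 35.5% were at numbers 9 to 13 and 45.9% at numbers 5 to 8, against 66.4% at numbers 9 to 13 in that Hom library itself.

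**Figure D2:**
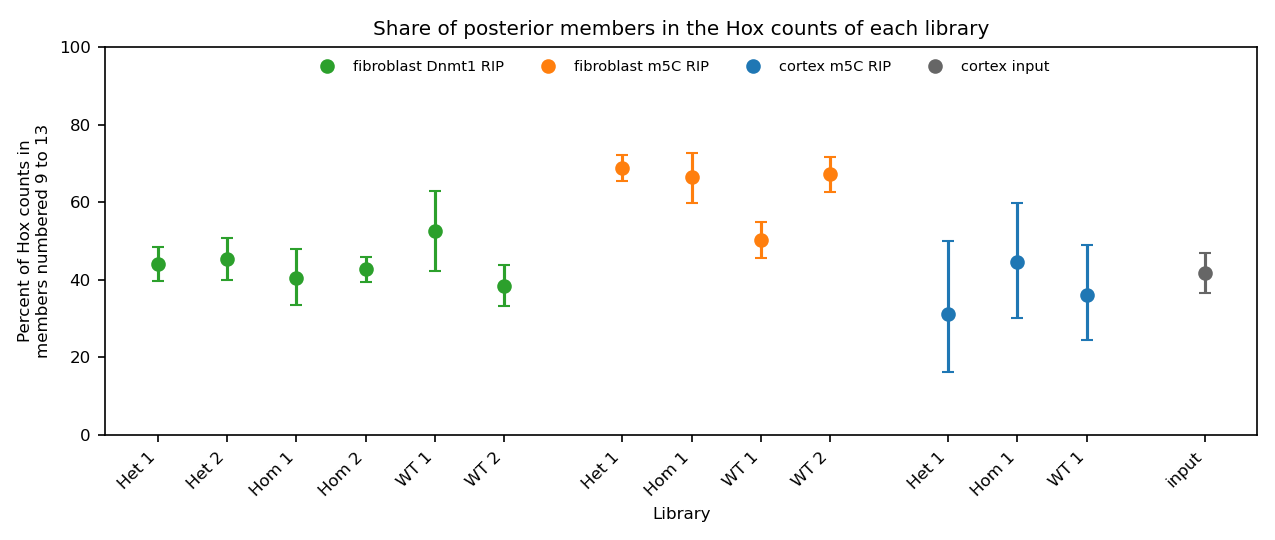
Percent of each library's Hox counts that fell in genes numbered 9 to 13, with 95% exact binomial intervals as bars. Dnmt1 RIP libraries sit at 38.4 to 52.6%, and fibroblast m5C libraries sit at 66.4 to 68.8% apart from WT library 1 at 50.2%.

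Fibroblast m5C RIP was set against cortex m5C RIP to ask which Hox transcripts mark the tail fibroblasts, over 4 against 3 libraries with genotype as a covariate. Of the 39 genes, 25 passed the filter on low counts, and 20 of them were called higher in fibroblasts and 0 lower by edgeR's quasi-likelihood test with Benjamini-Hochberg adjustment at 0.05; DESeq2 called 20 higher. Among all 14193 genes tested, edgeR called 33.0% higher and 30.9% lower and DESeq2 30.7% higher. At an unadjusted p under 0.05, 21 Hox genes were higher, where 34.7% of all genes were. The filter lets a gene in through fibroblasts alone and drops genes low in both tissues, so the 25 are not the whole set: the 14 that did not pass include every Hoxd gene but Hoxd10. With no filter all 39 were tested and the same 20 were called. By cluster, calls covered 8 of 8 genes tested in Hoxb, 8 of 9 in Hoxc, 4 of 7 in Hoxa and 0 of 1 in Hoxd. By number, they covered 10 of 12 at 9 to 13, 8 of 9 at 5 to 8 and 2 of 4 at 1 to 4. The median log2 fold change was 3.84 for the 25, or 3.64 with genes at 0 in cortex set to their bound, against 0.06 for all genes tested. With no filter it was 3.14 for the 39, against 0.68 for all genes. The filtered medians include genes that passed through fibroblasts alone and support nothing by themselves.

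A first group of genes had no count in any cortex m5C library. Hoxb13 stood at 37.4 CPM in Het, 23.4 in Hom, and 25.6 and 23.6 CPM in WT fibroblasts, which is at least 14.7-fold above the mean cortex limit of 3 counts per library. Hoxb9 stood at 49.0 CPM in Het, 24.8 in Hom, and 18.5 and 45.6 CPM in WT fibroblasts, at least 18.4-fold above that limit. Hoxc12 stood at 27.3 CPM in Het, 17.9 in Hom, and 14.4 and 21.2 CPM in WT fibroblasts, at least 10.8-fold above it. Each fibroblast m5C library was high and each cortex m5C library was at 0, so the groups did not overlap for these 3 genes. Cortex input held 1.63 CPM of Hoxb13, 3.05 of Hoxb9 and 0.814 of Hoxc12, so these values do not show the genes absent from cortex. In edgeR their adjusted p-values were 5.8e-07 for Hoxb13, 9.08e-07 for Hoxb9 and 3.66e-06 for Hoxc12. Without WT library 1 the bounds were 15-, 21.2- and 11.8-fold in the same order.

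The rest of the Hoxc genes at the tail end followed. Hoxc13 was at 35.1 CPM in Het, 23.4 in Hom, and 18.5 and 43.2 CPM in WT fibroblasts, against 2.79 CPM in Het and 0 in Hom and WT cortex (log2 fold change 5.23 ± 0.66 SE, edgeR adjusted p = 6.62e-06). Hoxc11 was at 20.8 CPM in Het, 28.9 in Hom, and 27.7 and 29.3 CPM in WT fibroblasts, against 3.05 CPM in WT and 0 in Het and Hom cortex (4.98 ± 0.66, edgeR adjusted p = 1.07e-05). Hoxc10 was at 18.5 CPM in Het, 27.6 in Hom, and 31.8 and 8.97 CPM in WT fibroblasts, against 2.29 CPM in WT and 0 in Het and Hom cortex (5.10 ± 0.83, edgeR adjusted p = 8.19e-05). For each of these genes 1 cortex library held a few counts, and it was not the same genotype throughout; no cortex value reached the lowest fibroblast value. The size of these estimates depends on that library: over the libraries left out they ran from 4.66 to 8.31 for Hoxc13, 4.16 to 8.29 for Hoxc11 and 4.17 to 8.19 for Hoxc10, the upper ends with all remaining cortex libraries at 0. Summed over numbers 9 to 13, Hoxc gave 108 to 110 CPM in each of the 4 fibroblast m5C libraries.

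Hoxa genes of the same end were present at lower values. Hoxa10, which patterns the lumbar spine and the uterus, was at 13.9 CPM in Het, 20.7 in Hom, and 23.6 and 13 CPM in WT fibroblasts, against 0.83 CPM in Hom and 0 in Het and WT cortex (log2 fold change 5.50 ± 0.76, edgeR adjusted p = 1.62e-05). Hoxa9, a regulator of blood progenitors, was at 6.47 CPM in Het, 9.64 in Hom, and 22.6 and 14.7 CPM in WT fibroblasts, against 0.697 CPM in Het, 0 in Hom and 0.763 CPM in WT cortex (4.61 ± 0.84, edgeR adjusted p = 0.000234). Hoxa11, which shapes the forearm and the uterus, was at 10.2 CPM in Het, 11 in Hom, and 25.6 and 13.9 CPM in WT fibroblasts, against 1.39 CPM in Het, 1.25 in Hom and 0 in WT cortex (3.84 ± 0.74, edgeR adjusted p = 0.000369). In all 3 genes WT library 1 was the highest fibroblast library, and the tissues did not overlap. Over the libraries left out, Hoxa10 ran from 5.10 to 7.76. Hoxa11 shares 35.0% of its exon bases with Hoxa11os on the opposite strand.

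Middle and low numbers were called mainly in Hoxb. Hoxb8, known from myeloid progenitors and from grooming in mice, was at 11.6 CPM in Het, 17.9 in Hom, and 31.8 and 22.0 CPM in WT fibroblasts, against 1.53 CPM in WT and 0 in Het and Hom cortex (log2 fold change 5.38 ± 0.72, edgeR adjusted p = 1.2e-05). Hoxb4, known for the expansion of blood stem cells, was at 12 CPM in Het, 24.8 in Hom, and 26.7 and 11.4 CPM in WT fibroblasts, against 0.697 CPM in Het, 2.08 in Hom and 0 in WT cortex (4.28 ± 0.68, edgeR adjusted p = 6.5e-05). Hoxb6 was at 5.55 CPM in Het, 12.4 in Hom, and 18.5 and 10.6 CPM in WT fibroblasts, against 0.763 CPM in WT and 0 in Het and Hom cortex (5.36 ± 0.99, edgeR adjusted p = 0.000262). Fibroblast values lay above cortex values for each of them, and Het was at or near the low end of the fibroblasts. Over the libraries left out, Hoxb8 ran from 4.71 to 7.55 and Hoxb6 from 4.59 to 6.88. The other calls were Hoxb7, Hoxc9, Hoxb5, Hoxc6, Hoxb2, Hoxa5, Hoxc8 and Hoxc5, with log2 fold changes of 1.83 to 3.79. Of the 25, 16 did not overlap between the tissues with fibroblasts higher, against 30.4% of all genes, and 0 did so with fibroblasts lower, against 36.1%.

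Genes tested and not called were Hoxa2, Hoxa7, Hoxa13, Hoxc4 and Hoxd10. Hoxa2, which specifies an arch of the embryonic pharynx, had no count in Het or Hom fibroblasts and 12.3 and 4.08 CPM in WT fibroblasts, against no count in cortex (edgeR adjusted p = 0.0724). The calls at the weak end depended on the libraries present, and Hoxa5, Hoxb2, Hoxb5, Hoxc5, Hoxc6 and Hoxc8 were each not called in some settings. Hoxc5 stood at 5.55 CPM in Het, 2.76 in Hom, and 31.8 and 4.08 CPM in WT fibroblasts, so WT library 1 alone was high, and cortex reached 3.82 CPM. Without WT library 1, 17 of 20 genes tested were called, 16 of them among the 20 called above. Of those 20, Hoxa5 and Hoxc5 were then not tested and Hoxc6 and Hoxc8 were not called, while Hoxa7 was called in addition. Over all alternatives 14 genes were called in every setting: Hoxa9, Hoxa10, Hoxa11, Hoxb4, Hoxb6, Hoxb7, Hoxb8, Hoxb9, Hoxb13 and Hoxc9 to Hoxc13. The macrophage markers moved with the tissue as well, 8 of 8 being called higher in fibroblasts, and their part in the Hox values was not tested. In these libraries more RNA per cell and more cells that carry the RNA cannot be told apart, nor can more methylated RNA from more RNA.

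**Figure D3:**
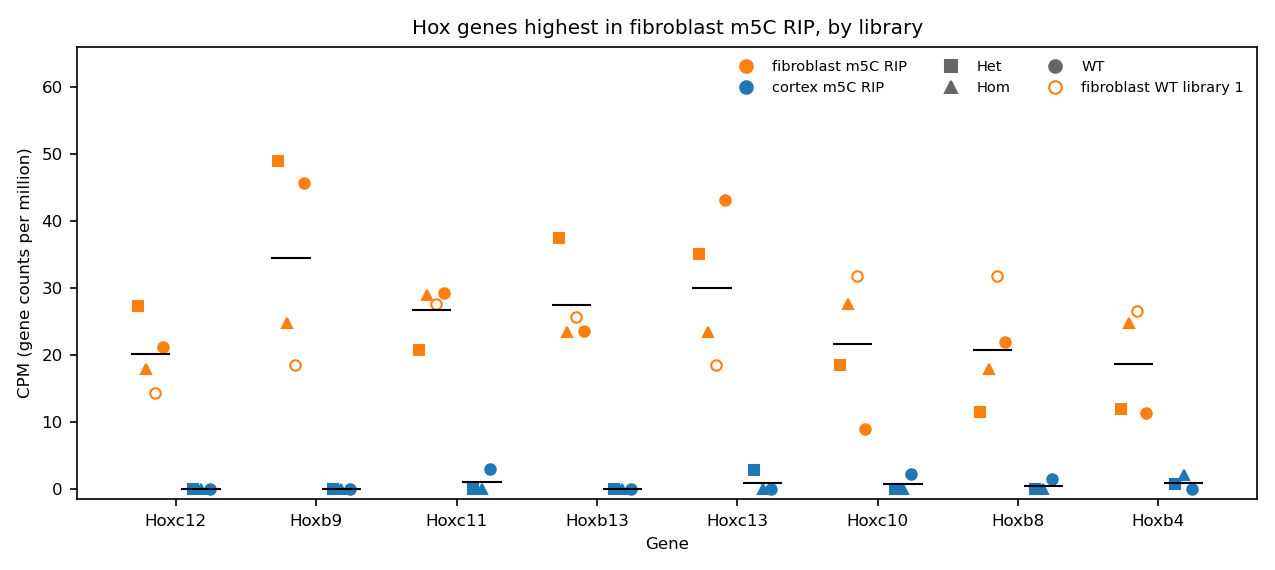
CPM in each m5C RIP library for the 8 Hox genes with the highest level per kb in fibroblasts, with fibroblasts (orange) left of cortex (blue), squares for Het, triangles for Hom, circles for WT, an open circle for fibroblast WT library 1 and lines for group means. Fibroblast points run from 8.97 to 49.0 CPM and cortex points reach 3.05 CPM at most, for genes chosen by their fibroblast level.

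Lists of genes that work with Hox proteins, act on Hox clusters or mark position were read against the same background, 33.0% of all genes called higher and 30.9% lower. Of 9 TALE cofactors, which bind DNA next to Hox proteins, 0 were called higher and 3 lower in fibroblast m5C RIP, among them Meis2 (log2 fold change −2.06 ± 0.24) and Pknox2 (−1.42 ± 0.26). Of 27 Polycomb genes, which keep Hox clusters silent, 9 were higher and 8 lower, shares near the background. Of 12 Trithorax genes, which keep them active, 2 were higher and 8 lower, among them Kmt2a at −2.22 ± 0.17. Of 8 tested factors of limb and trunk position, 6 were higher and 0 lower, with Prrx2 at 7.46 ± 0.47 and Twist1 at 4.86 ± 0.48. Of 15 forebrain factors, 0 were higher and 7 lower, with Cux2 at −2.83 ± 0.21. The genes that flank the clusters gave 1 higher and 3 lower call of 10, and Skap2, next to Hoxa, was the higher one (2.26 ± 0.21). All of these calls are by edgeR at an adjusted p of 0.05 over the 14193 genes.

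Dnmt1 RIP was set against m5C RIP of the same fibroblast lines, 6 against 4 libraries with genotype as a covariate, to ask whether the antibodies recover different Hox transcripts. Of the 39 genes 31 passed the filter, and edgeR called 6 higher and 5 lower in Dnmt1 RIP, where 17.5% and 22.6% of all 17124 genes tested were called in those directions. DESeq2 called 10 higher and 4 lower, where 23.1% and 20.2% of all genes were. At an unadjusted p under 0.05, 11 were higher and 5 lower, where 23.8% and 26.1% of all genes were. By edgeR the share of Hox genes called higher lay near the background, and the share called lower lay somewhat below it. By DESeq2 and at the unadjusted threshold the higher share lay above the background and the lower share below it. These shares were not compared by a test. All 5 genes called lower were numbered 9 to 13, in Hoxb and Hoxc, and the 6 called higher were numbered 3 to 11, in Hoxa, Hoxc and Hoxd. The difference in number between these calls was not tested. The median log2 fold change was 1.02 for the 31 genes and 0.22 for all genes tested. With no filter it was 1.08 for the 39 genes and 0.49 for all genes. It was 0.54 and 0.06 with libraries blocked by replicate number, and 0.05 and −0.04 with WT libraries alone. A gene can pass the filter through the assay where it is high, so the filtered medians support nothing by themselves. The antibodies were used on different material, fixed cells and isolated messenger RNA, so antibody and protocol cannot be told apart.

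The genes called lower were 5 of the 8 with the highest level per kb in m5C RIP. That rank uses the same m5C libraries as the fold change, so the match is partly built in and supports nothing by itself. Hoxb13 ran from 0.971 through a median of 5.89 to 32.2 CPM in Dnmt1 RIP, against 37.4 CPM in Het, 23.4 in Hom, and 25.6 and 23.6 CPM in WT m5C RIP (log2 fold change −1.99 ± 0.48, edgeR adjusted p = 0.00376). Hoxc13 ran from 0.971 through 8.75 to 32.2 CPM in Dnmt1 RIP, against 35.1 CPM in Het, 23.4 in Hom, and 18.5 and 43.2 CPM in WT m5C RIP (−1.78 ± 0.45, edgeR adjusted p = 0.00506). Hoxc11 ran from 0 through 5.27 to 24.2 CPM in Dnmt1 RIP, against 20.8 CPM in Het, 28.9 in Hom, and 27.7 and 29.3 CPM in WT m5C RIP (−1.83 ± 0.55, edgeR adjusted p = 0.0155). For Hoxb13 and Hoxc13 the Dnmt1 RIP maximum was WT library 1, the shallowest, and it lay inside the m5C range; for Hoxc11 the maximum was Hom library 2. Hoxb9 ran from 10.7 through 22.6 to 29.8 CPM in Dnmt1 RIP, against 49.0 CPM in Het, 24.8 in Hom, and 18.5 and 45.6 CPM in WT m5C RIP (−0.98 ± 0.32, edgeR adjusted p = 0.0236). Hoxc12 ran from 0 through 0.486 to 34.4 CPM in Dnmt1 RIP, against 27.3 CPM in Het, 17.9 in Hom, and 14.4 and 21.2 CPM in WT m5C RIP (−2.22 ± 0.82, edgeR adjusted p = 0.041). Hoxc12 had no count in 3 of the Dnmt1 RIP libraries and its highest value overall in Het library 1, so the groups overlapped through that library. Groups overlapped for each of the 5, and 0 of the 31 genes were lower in Dnmt1 RIP without overlap, against 9.92% of all genes.

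Of the genes called higher, Hoxa3 and Hoxd11 ranked 30 and 34 of 39 per kb in m5C RIP, and the other 4 ranked 14 to 21. These ranks too come from the m5C libraries compared. Hoxd11, which shapes the forearm, ran from 0 through 11.6 to 56.1 CPM in Dnmt1 RIP, against 1.85 CPM in Het, 1.38 in Hom, and 1.03 and 1.63 CPM in WT m5C RIP (log2 fold change 3.22 ± 0.80, edgeR adjusted p = 0.00472). Hoxa5 ran from 7.77 through 23.3 to 37.4 CPM in Dnmt1 RIP, against 5.08 CPM in Het, 1.38 in Hom, and 10.3 and 4.89 CPM in WT m5C RIP (1.91 ± 0.53, edgeR adjusted p = 0.0101). Hoxc6 ran from 7.77 through 27.9 to 71.3 CPM in Dnmt1 RIP, against 7.39 CPM in Het, 5.51 in Hom, and 17.4 and 9.78 CPM in WT m5C RIP (1.46 ± 0.41, edgeR adjusted p = 0.0105). Most Dnmt1 RIP libraries were high for these 3 genes. In CPM the groups overlapped through WT library 1 for Hoxd11, Hom library 1 for Hoxa5, and Hom library 1 and Het library 2 for Hoxc6. The 4 dominant genes took 63.5% of Hom library 1, which lowers the CPM of its other genes, and overlap without them was not computed. Hoxa3, needed for the thymus, ran from 5.83 through 13.9 to 24.6 CPM in Dnmt1 RIP, against 3.70 CPM in Het, 4.13 in Hom, and 5.13 and 2.45 CPM in WT m5C RIP (1.70 ± 0.57, edgeR adjusted p = 0.0263). It was the 1 gene of 31 higher without overlap, where 13.7% of all genes were. Hoxa3 shares 27.1% of its exon bases with other genes, among them Hoxaas3 on the opposite strand. Hoxc4 and Hoxd10 were called near the threshold. Hoxc4 ran from 2.48 through 21.3 to 36.7 CPM in Dnmt1 RIP, against 2.77 CPM in Het, 2.76 in Hom, and 16.4 and 4.08 CPM in WT m5C RIP (1.64 ± 0.62, edgeR adjusted p = 0.0456). Hoxd10 ran from 3.73 through 15.5 to 25.7 CPM in Dnmt1 RIP, against 2.31 CPM in Het, 1.38 in Hom, and 8.20 and 4.89 CPM in WT m5C RIP (1.62 ± 0.62, edgeR adjusted p = 0.0482). Both overlapped between the assays.

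**Figure D4:**
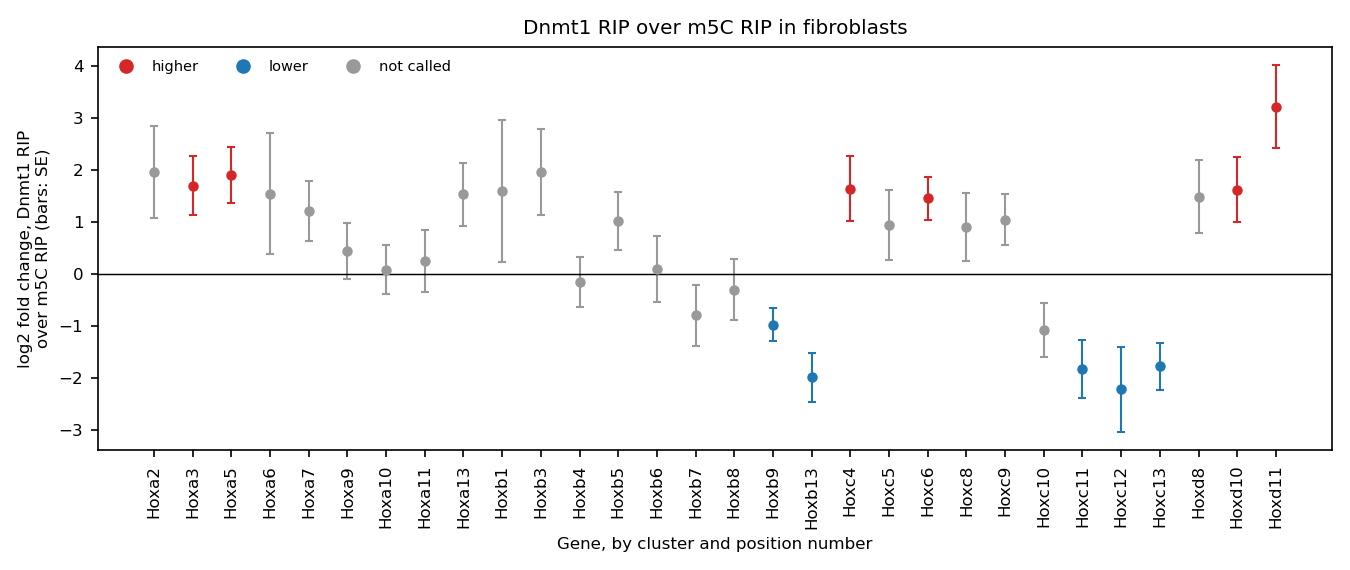
Log2 fold change (± SE) of Dnmt1 RIP over m5C RIP in fibroblasts for 30 of the 31 Hox genes tested, coloured red where called higher, blue where called lower and grey where not called. The 5 blue genes are numbered 9 to 13 and run from −2.22 to −0.98, and the 6 red genes run from 1.46 to 3.22.

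The calls between antibodies depended on which libraries were present. Without WT library 2 of Dnmt1 RIP 1 gene was called higher, without Het library 1 of Dnmt1 RIP 3 were, and without the Hom library of m5C RIP 2 were. The lower calls came to 3 without WT library 1 of Dnmt1 RIP, without WT library 2 of m5C RIP or without the Hom library of m5C RIP. Without WT library 1 of m5C RIP, 9 were higher and 4 lower. Scaling by total counts alone moved the median log2 fold change of all genes by 0.37, and 12 Hox genes were then called higher. Hoxc11 was the 1 Hox gene called in every setting. Marker genes moved with this comparison: 8 of 8 fibroblast markers and 8 of 8 macrophage markers tested were called lower in Dnmt1 RIP and 9 of 9 neuron markers higher, and their part in the Hox values was not tested. Other lists are set against the 17.5% of all genes called higher and 22.6% lower: forebrain factors gave 10 higher and 0 lower calls of 15, TALE cofactors 3 higher (Meis2 at 2.02 ± 0.44, Meis1 at 1.78 ± 0.42) and 1 lower of 9, and Polycomb genes 4 higher and 4 lower of 27. Trithorax genes gave 4 higher and 2 lower of 12, ParaHox genes 2 higher of 4, limb and trunk factors 2 higher and 3 lower of 12, and cluster neighbours 1 higher and 2 lower of 12. Of the noncoding RNAs in the Hox clusters, 4 were tested and Hoxaas3 was called higher (3.30 ± 0.93, edgeR adjusted p = 0.0105). Its exons overlap those of Hoxa3 and Hoxa7 on the opposite strand, so their reads may not be told apart.

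Whether the Dnmt1 mutation changed Hox RNA in the Dnmt1 RIP was asked in 6 libraries, and no Hox gene was called for Het or Hom. The genotypes also differed in marker content in these libraries. The 9 fibroblast markers summed to 16189 and 7616 CPM in Het, 435 and 2324 in Hom, and 516 and 1522 in WT. Their part in the Hox estimates between genotypes was not tested. Of 27 Hox genes tested, edgeR called 0 in Het over WT, as it did among all 13589 genes (0% in either direction), and 1 of the 27 had an unadjusted p under 0.05, where 4.43% of all genes did so higher and 1.96% lower. DESeq2 called 26 genes higher (0.191%), none of them a Hox gene. Hoxb4 had the smallest p: 36.8 and 44.7 CPM in Het, against 23.0 and 6.48 CPM in WT (log2 fold change 1.73 ± 0.71, edgeR adjusted p = 0.779). Both Het values lay above both WT values. Hoxc6 was at 25.8 and 17.4 CPM in Het, against 36.8 and 71.3 CPM in WT (−1.29 ± 0.65, edgeR adjusted p = 0.804). Hoxc11 was at 17.2 and 6.21 CPM in Het, against 0 and 4.32 CPM in WT (2.12 ± 1.46, edgeR adjusted p = 0.836). Hoxd11 was at 13.5 and 6.21 CPM in Het, against 0 and 56.1 CPM in WT (−1.65 ± 1.10, edgeR adjusted p = 0.836), and its 2 WT libraries enclosed both Het values; without WT library 2 the estimate was 6.05. Over the libraries left out, Hoxc11 ran from 0.91 to 6.32. Without overlap, Hoxa9, Hoxb4 and Hoxc11 were higher and Hoxc4 and Hoxc6 lower in Het, where 15.3% and 15.6% of all genes were.

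For Hom over WT, edgeR called 0 of 27 Hox genes and 0 of 13589 genes (0%), 1 Hox gene had an unadjusted p under 0.05 as 1.21% of all genes did higher and 1.06% lower, and DESeq2 called 0. Hoxd8 had 0 and 3.67 CPM in Hom, against 9.21 and 28.1 CPM in WT (log2 fold change −3.08 ± 1.15, unadjusted p = 0.0226 and adjusted p = 1 by edgeR). Its values in Het were 9.82 and 19.9 CPM, and Hom over Het gave −2.61 ± 1.12. Both Hom values lay below all 4 others, and the estimate over WT ran from −6.50 to −1.68 over the libraries left out. Hoxc6 was at 7.77 and 30.1 CPM in Hom, against 36.8 and 71.3 CPM in WT (−1.30 ± 0.64), again without overlap. Hoxc11 was at 1.94 and 24.2 CPM in Hom, against 0 and 4.32 CPM in WT (2.26 ± 1.43), and Hoxb13 at 0.971 and 4.40 CPM in Hom, against 32.2 and 2.16 CPM in WT (−1.97 ± 1.25). The groups overlapped for these last genes, and the Hoxb13 difference became 0.45 without WT library 1. Hoxa7, Hoxb9, Hoxc6 and Hoxd8 were lower in Hom without overlap, where 19.3% of all genes were, and 0 were higher, where 3.70% were. These overlaps were read from CPM on total gene counts. The 4 dominant genes took 63.5% of Hom library 1, which lowers the CPM of its other genes. Overlap with them left out was not computed. Scaling by total counts alone moved the median of all genes by −0.39 in this comparison.

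Hom over Het gave 0 Hox calls of 27 by edgeR (0% of all genes), 1 Hox gene at an unadjusted p under 0.05 where 1.32% of all genes were higher and 3.30% lower, and 15 lower genes by DESeq2 (0.110%), none of them a Hox gene. After Hoxd8, the smallest p-values belonged to Hoxb13, Hoxb4 and Hoxc4. Hoxb13 was at 0.971 and 4.40 CPM in Hom, against 7.37 and 22.4 CPM in Het (log2 fold change −2.04 ± 1.15). Hoxb4 was at 6.80 and 27.2 CPM in Hom, against 36.8 and 44.7 CPM in Het (−1.03 ± 0.61). Hoxc4 was at 11.7 and 36.0 CPM in Hom, against 19.6 and 2.48 CPM in Het (1.22 ± 0.88), and its groups overlapped.

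**Figure D5:**
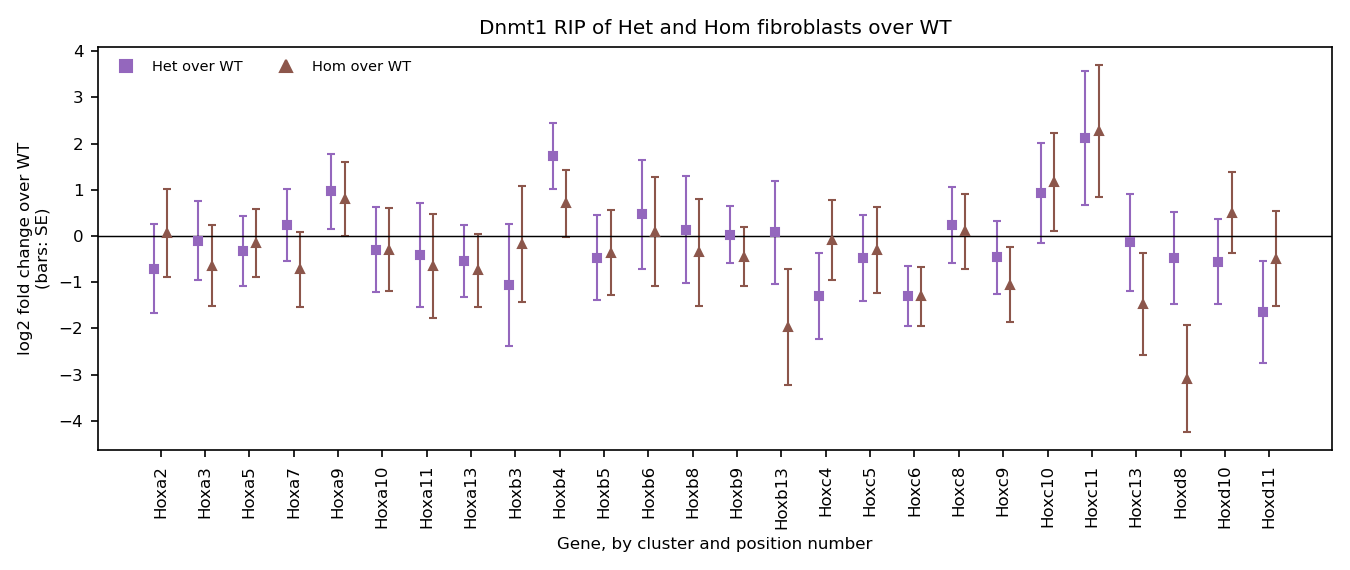
Log2 fold change (± SE) in Dnmt1 RIP for 26 of the 27 Hox genes tested, Het over WT as purple squares and Hom over WT as brown triangles. No gene was called; estimates named in the text run from −3.08 for Hoxd8 to 2.26 for Hoxc11.

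In m5C RIP, Het and Hom were each set against WT over both tissues, with tissue as a covariate. For Het, edgeR called 0 of 25 Hox genes and 0 of 14193 genes (0%), 2 Hox genes had a lower unadjusted p under 0.05 where 2.72% of all genes did, and DESeq2 called 0. Hoxa2 had no count in Het, against 12.3 and 4.08 CPM in WT fibroblasts and 0 in WT cortex. Hoxb8 was at 11.6 CPM in Het fibroblasts and 0 in Het cortex, against 31.8 and 22.0 CPM in WT fibroblasts and 1.53 CPM in WT cortex (log2 fold change −1.44 ± 0.65, unadjusted p = 0.0437 and adjusted p = 0.989 by edgeR). Hoxc4 was at 2.77 and 0.697 CPM in Het fibroblasts and cortex, against 16.4 and 4.08 CPM in WT fibroblasts and 3.05 CPM in WT cortex (−1.97 ± 1.05). Hoxc6 was at 7.39 and 1.39 CPM in Het fibroblasts and cortex, against 17.4 and 9.78 CPM in WT fibroblasts and 5.34 CPM in WT cortex (−1.22 ± 0.70). For these genes Het was lower than WT within each tissue where counts existed. Of the 25 estimates 6 were positive, against 6670 of all 14193, with a median of −0.69 against −0.03 for all genes. These estimates come from the same libraries, and a gene can pass the filter through 1 high library. Their signs and median are descriptions and support no change of the Hox genes as a set. Without WT library 1 of fibroblasts, 10 of 20 were positive with a median near 0 (−0.0027), and Hoxc4 was not tested. Over the libraries left out, Hoxb8 ran from −3.28 to −1.29 and Hoxc6 from −1.89 to −0.97.

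For Hom, edgeR called 0 of 25 Hox genes and 0 of 14193 genes (0%), 2 Hox genes had an unadjusted p under 0.05 where 0.282% of all genes were higher and 0.578% lower, and DESeq2 called 0. Hoxa13, a gene of digits and the genital tubercle, had no count in Hom of either tissue, against 2.05 and 6.52 CPM in WT fibroblasts and 5.34 CPM in WT cortex. Hoxc5 was at 2.76 and 0.83 CPM in Hom fibroblasts and cortex, against 31.8 and 4.08 CPM in WT fibroblasts and 3.82 CPM in WT cortex (log2 fold change −2.53 ± 1.05, unadjusted p = 0.0307 by edgeR). Hoxc6 was at 5.51 and 1.66 CPM in Hom fibroblasts and cortex, against 17.4 and 9.78 CPM in WT fibroblasts and 5.34 CPM in WT cortex (−1.44 ± 0.77). Hoxa5 was at 1.38 CPM in Hom fibroblasts and 0 in Hom cortex, against 10.3 and 4.89 CPM in WT fibroblasts and 1.53 CPM in WT cortex (−2.85 ± 1.55). Of the 25 estimates 3 were positive, against 7073 of all 14193, with a median of −0.64. As for Het, the genes share the same libraries and can pass the filter through 1 high library. Their signs and median are descriptions and support no change of the Hox genes as a set. Without WT library 1 of fibroblasts, 5 of 20 were positive with a median of −0.75, and Hoxc5 and Hoxa5 were not tested. Over the libraries left out, Hoxc6 ran from −1.71 to −1.20. The Hom and WT 1 fibroblast files are not independent, as their shared counts show, and Hoxc5 held the largest excess of WT library 1 over Hom among Hox genes, 29 counts.

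Whether a genotype effect differed between the antibodies was tested as an interaction in the 10 fibroblast libraries. Over 17124 genes edgeR called 0 for Het and 0 for Hom (0%), and DESeq2 0 for each. Of 31 Hox genes, 4 had an unadjusted p under 0.05 for Het, where 2.47% of all genes were higher and 0.876% lower, and 1 for Hom, where 1.05% were higher and 0.140% lower. For Het the estimates were 2.54 ± 1.03 for Hoxb4 and 2.58 ± 1.15 for Hoxa9 on the log2 scale, Dnmt1 RIP minus m5C RIP; Hoxa2 and Hoxb1 had groups at 0. Hoxa9 was at 33.2 and 18.6 CPM in Het, against 9.21 and 17.3 CPM in WT Dnmt1 RIP, and at 6.47 CPM in Het, against 22.6 and 14.7 CPM in WT m5C RIP. For Hom, Hoxc11 gave 2.48 ± 1.51, with 0.56 to 6.79 over the libraries left out, and Hoxd10 2.82 ± 1.75. Without WT library 1 of m5C RIP the calls stayed at 0, and the estimates were 1.79 for Hoxb4 and 2.23 for Hoxa9 (Het) and 2.48 for Hoxc11 and 2.40 for Hoxd10 (Hom).

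The inputs limited what could be said of enrichment. Fibroblast input held 7 Hox counts: 4 of Hoxb4 (17.5 CPM) and 1 each of Hoxa10, Hoxc12 and Hoxd11 (4.37 CPM). In Dnmt1 RIP over fibroblast input edgeR called 0 of 30 Hox genes, where 3.31% of all 16558 genes were called higher and 1.68% lower, 2 Hox genes were higher at an unadjusted p under 0.05, where 23.8% of all genes were higher and 6.11% lower, and DESeq2 called 0 Hox genes. Hoxc6, Hoxb9, Hoxa5 and Hoxc9 had no count in that input, where the limit of 3 counts is 13.1 CPM on total gene counts. Their Dnmt1 RIP means were 2.40-, 1.67-, 1.82- and 1.97-fold that limit. The 4 dominant genes took 58.4% of that input, so leaving them out of the total raises the limit. Folds on such totals were not computed. In m5C RIP over input of both tissues edgeR called 0 of 25 Hox genes, where 0% of all 14501 genes were called higher and 0.0552% lower, 0 had an unadjusted p under 0.05 and DESeq2 called 0. The smallest p-values belonged to Hoxa2 (log2 fold change −3.33 ± 1.63), Hoxa5 (−2.09 ± 1.19), Hoxa9 (−1.36 ± 1.06) and Hoxc13 (1.47 ± 1.22). Without cortex input the signs of Hoxa2, Hoxa5 and Hoxa9 turned, to 3.10, 5.32 and 6.84, and 2 Hox genes were called higher. In cortex the input, with 4913482 gene counts, read 37 of the 39 genes, and each of these 4 genes was at 0 in at least 1 cortex m5C library while cortex input had 1.02, 3.87, 3.66 and 0.611 CPM of Hoxa2, Hoxa5, Hoxa9 and Hoxc13.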

How the data were processed

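RNA precipitated with antibodies to Dnmt1 or 5-methylcytosine, and 2 inputs, was sequenced. The authors deposited raw counts per gene symbol, 1 table per library. Per the submitters' processing notes, Trim Galore 0.4.1, HISAT2 and featureCounts were used with mm10; other versions, the annotation and the strand setting were not given in the sources used here. The tables of 6 libraries also end in 5 entries that name no gene and hold 89.9 to 96.2% of their sum; library sizes and tests leave them out.

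CPM were computed from gene counts, and levels per kb from merged exons of GENCODE M21; homeoboxes were read from the same release. Fits used edgeR 4.0.16 in R 4.3.3 (filterByExpr with minimum count 10 and total 15, TMM, glmQLFit and glmQLFTest, Benjamini-Hochberg over all genes tested, threshold 0.05). They were tested on simulated data whose changed genes had more counts than most Hox genes, so that check does not cover genes at low counts. SE is |log2 fold change| over the root of F. Genes at 0 in a group are given as bounds against 3 counts per library, and shares with 95% exact binomial intervals. Alternatives were RLE factors, total counts alone, no filter, DESeq2 1.42.0, 4 dominant genes left out, each library left out, a replicate block, and WT libraries or Het and Hom libraries alone. Python 3.11.15, pandas 2.3.3, SciPy 1.17.1 and matplotlib 3.10.9 were also used.

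Any Hox gene may be named. Values per library are given for genes called (the 12 smallest p), for the 8 highest per kb in fibroblast m5C RIP and, where none was called, for the 4 smallest p. From other lists up to 3 genes with the smallest p are named. The members and lists were chosen with earlier results of these data known. Some items are not reported here.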

Additional observations from a re-analysis of the deposited data

How the results depend on the processing

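Of 300 recomputed counts of Hox calls, 287 stayed within 1.5 times the reported count and 13 moved. Of 789 recomputed values of named genes, 733 kept direction and side of the threshold, 51 lost the call and 5 reversed. In fibroblasts over cortex, calls ran from 14 to 20 over the libraries left out. In Dnmt1 RIP over m5C RIP the 6 higher calls became 12 with total counts alone and 10 with DESeq2, and ran from 1 to 9 with 1 library left out; the 5 lower calls ran from 3 to 5. With WT libraries alone, which leaves fewer samples, there was 1 higher and 2 lower. The replicate block gave 1 higher and 2 lower. In that block the m5C Het and Hom libraries, which carry no number, form a level of their own. The antibody estimate then rests mainly on the WT libraries. Deviations of same-numbered Dnmt1 RIP libraries correlated at r = −0.0059 for Het with WT, 0.20 for Hom with WT and 0.059 for Hom with Het. With 2 libraries per genotype each r is a single comparison, so pairing by number could not be decided. No count of Hox calls in another comparison changed with the block. In Dnmt1 RIP, Hoxd11 in Het over WT ran from −2.60 to 6.05 (6.05 without WT library 2), and Hoxb13 in Hom over WT from −2.90 to 0.45 (0.45 without WT library 1). In m5C RIP over input, higher calls ran from 0 to 2. Without cortex input, which leaves fibroblast input and its 7 Hox counts, 2 genes were called and Hoxa2 became 3.10 (range −5.78 to 3.10), Hoxa5 5.32 (−3.44 to 5.32) and Hoxa9 6.84 (−3.15 to 6.84). Where no construction is named the cause was not tested. Depth limits cortex m5C RIP, with 32 to 64 Hox counts, and WT library 1 of Dnmt1 RIP, with 97.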
